A study of Mus musculus with 18 samples.

Results

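The 43 genes described here are mouse genes that type I interferons switch on. They were taken as a fixed list of names (Ifit, Oas, Mx, Slfn and Ifitm family members, nucleic acid sensors, the Isg15 system and others). All 43 names were found among the 49671 gene models of the count tables, and all 43 passed the filter on low counts, so that they make up 43 of the 14080 genes tested. The list was chosen by name, with earlier results of these data known, and no measured value enters its rule.

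The RNA came from CD8+ and CD4+ T cells sorted by flow cytometry out of subcutaneous B16f10-OVA tumors (mouse melanoma cells that make ovalbumin) after 12 days of growth in B6 mice. A floxed miR-155 gene was present in all 6 groups. In the floxed groups the labels name no Cre. In the deficient groups Cre was driven by the CD4 promoter, which switches on in developing thymocytes before the CD4 and CD8 lineages part, so that the gene can be lost in both sorted cell types. The treated deficient groups are deficient mice that had also received checkpoint antibodies (to CTLA-4 and to PD-1/PD-L1) on days 3, 6 and 9. Each cell type and condition had 3 libraries, each a pool of 2 to 3 tumors. Floxed mice with antibodies were not analysed here, so the effect of the antibodies was measured in deficient cells alone. The age and sex of the mice are not given in the sources used here.

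Type I interferons (interferon alpha and beta) are secreted by cells that sense foreign or misplaced nucleic acid. They bind a receptor of the chains Ifnar1 and Ifnar2, which acts through the kinases Jak1 and Tyk2. A complex that holds the transcription factor Irf9 then binds a repeated GAAA motif, the interferon-stimulated response element, near the start of the target genes. T cells in tumors can show this program, and the same genes are also expressed by macrophages and dendritic cells.

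The response element could be read in the promoters of many members, and the stretches below show it in some of those that hold it. Promoters were 300 bases long, from 250 bases before to 50 after the annotated start (RefSeq, build GRCm38.p6, the genome build of the counts). Of the 43 members 32 had an entry, and 16 of the 32 (50%) held GAAA, any 2 bases and GAAA again on either strand, against 1079 of 27025 genes of the table (3.99%). The 11 members with no entry were Oas2, Dhx58, Zbp1, Usp18, Mx1, Mx2, Rtp4, Ifi204, Parp9, Parp14 and Ifi27l2a. A match shows only that these letters are present. The 30-base windows are written 5′ to 3′ along the strand of the gene, with the letters of the match in capitals. TTTC, any 2 bases and TTTC is the same motif read from the opposite strand.
Ifit1, chr19:34640775-34640804, plus strand: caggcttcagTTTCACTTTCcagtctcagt
Ifit1, chr19:34640794-34640823, plus strand: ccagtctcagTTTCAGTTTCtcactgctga
Ifit3, chr19:34583363-34583392, plus strand: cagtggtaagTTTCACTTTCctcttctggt
Ifit3b, chr19:34607759-34607788, plus strand: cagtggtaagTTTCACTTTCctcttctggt
Isg15, chr4:156200871-156200900, minus strand: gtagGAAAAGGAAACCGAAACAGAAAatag
Oas1a, chr5:120907523-120907552, minus strand: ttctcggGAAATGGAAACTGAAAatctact
Oas3, chr5:120777715-120777744, minus strand: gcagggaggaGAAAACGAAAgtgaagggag
Rsad2, chr12:26456553-26456582, minus strand: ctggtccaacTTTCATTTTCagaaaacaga
Slfn5, chr11:82951937-82951966, plus strand: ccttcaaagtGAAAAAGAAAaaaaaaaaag
Slfn8, chr11:83020839-83020868, minus strand: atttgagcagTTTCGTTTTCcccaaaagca
Bst2, chr8:71537580-71537609, minus strand: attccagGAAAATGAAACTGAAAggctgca
The windows of Ifit3 and Ifit3b are identical, and these neighbouring genes also share much of their transcripts (see the Ifit genes below). In Isg15 3 matches overlap, and in Oas1a and Bst2 2 matches overlap. The counted gene model of Slfn5 starts at 82951349, upstream of its window, so the RefSeq start used for Slfn5 differs and the window lies inside that model. The Slfn5 match also runs into a stretch of A.

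Libraries held 3.198 to 11.65 M counts (mega), so that 3 counts, taken as the limit of detection, correspond to 0.258 to 1.24 CPM depending on the library. CPM is counts per M counts after TMM scaling. Models of ribosomal type took 25.5% of the counts in treated CD8 replicate 2, 7.67% in deficient CD4 replicate 3 and 5.46% in floxed CD8 replicate 1, and at most 3.31% in the others. Mir155hg, the host transcript of miR-155, stood at 20.5, 19.2 and 9.08 CPM in floxed and at most 1.90 CPM in deficient CD8 cells, and at 4.88, 8.24 and 6.72 against at most 0.649 CPM in CD4 cells. Cd4 was at 233 to 1091 CPM in the sorted CD4 cells and at most 3.14 CPM in the CD8 cells. Cd8a was at 624 to 1449 CPM in the CD8 cells, while floxed CD4 libraries held 14.6, 149.8 and 142 CPM of it. Deficient CD4 libraries held at most 0.283 CPM of Cd8a and treated CD4 libraries 1.83, 17.5 and 4.97 CPM, so this carry-over differed by condition. Its part in the comparisons below was not tested. Transcripts of other cells were present. The summed level of 20 macrophage and monocyte markers was 656.5 to 2122 CPM in floxed, 1573 to 3124 in deficient and 514.2 to 793.3 in treated CD8 libraries. In CD4 libraries it was 12910 to 27820, 3367 to 5065 and 3047 to 4901 CPM. None of the 20 was at 0 in any group. These sums recur below beside each comparison.

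Taken as a set, the interferon-stimulated genes were lowest in floxed CD8 cells and highest in floxed CD4 cells. The set level, the median over the 43 members of log2(CPM + 0.5), was 5.46, 4.92 and 5.08 for floxed CD8 libraries, 5.35, 5.99 and 5.96 in the deficient ones and 5.86, 5.70 and 5.65 in the treated deficient ones. In CD4 cells it was 6.97, 6.81 and 7.56 in floxed, 5.68, 6.82 and 6.25 in deficient and 6.87, 6.47 and 6.75 in treated deficient libraries. Within CD8 cells the floxed libraries overlapped the deficient ones but lay below every treated one. Within CD4 cells the treated libraries overlapped both others. Floxed and treated CD4 cells lay above the CD8 cells of the same condition in every library, whereas deficient CD4 replicate 1 lay below deficient CD8 replicates 2 and 3. Between deficient libraries of the same number CD4 cells were higher in all 3 pairs. By group mean, floxed CD4 cells were highest for 25 members and treated CD4 cells for 16. Ifitm1 was highest in deficient CD4 cells and Trim25 in floxed CD8 cells. Floxed CD8 cells were lowest for 34 members.

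**Figure D1:**
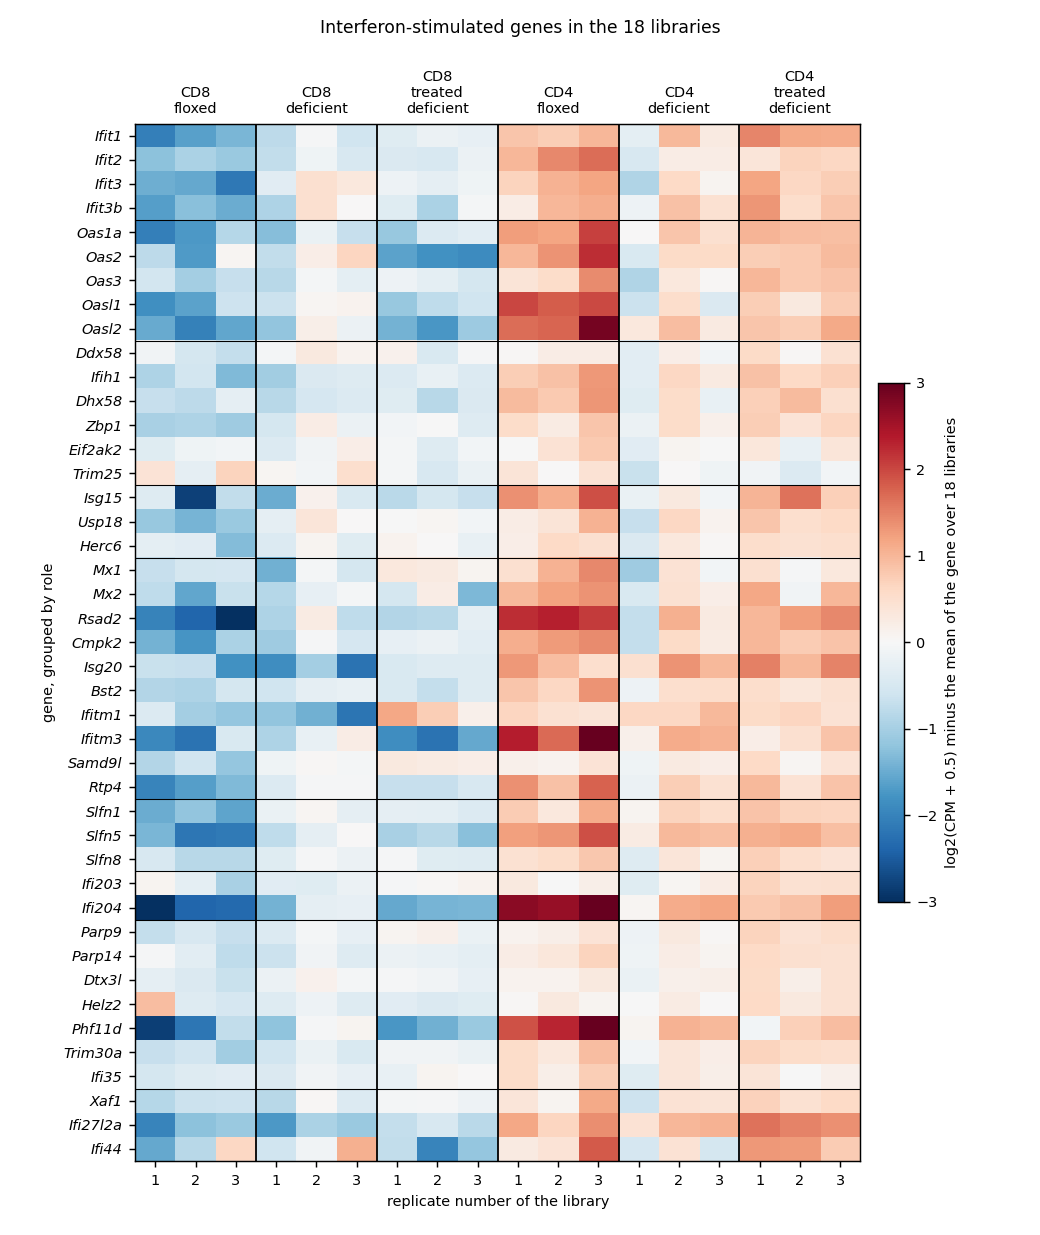
Levels of the 43 members in the 18 libraries, as log2(CPM + 0.5) minus the mean of each gene over all libraries (colour, cut off at 3 in either direction), with genes in rows grouped by role and libraries in columns. Floxed CD8 columns are the bluest and floxed CD4 columns the reddest for most genes, and Isg20, Ifitm1 and Trim25 depart from that pattern.

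The deficient libraries varied in step. Replicate 1 was the lowest of its group for 38 of 43 members in CD8 and for 40 of 43 in CD4 cells, and replicate 2 was the highest for 28 and 37. In floxed CD4 cells replicate 3 was the highest for 36 members, and it also held the highest macrophage marker sum (27820 CPM). The labels do not say whether CD8 and CD4 libraries of the same number came from the same tumors.

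The members covered a wide range of levels per kb of transcript. Ifi27l2a was highest (744 CPM per kb over all libraries), followed by Ifitm3 (141), Slfn1 (107), Bst2 (103) and Samd9l (100.3). Ifi44 was lowest (2.01 CPM per kb), below Mx2 (3.03) and Phf11d (4.61). Among all tested genes the members ran from the 27.6th to the 99.7th percentile of this measure.

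The first question was how CD8 and CD4 cells of the same condition differ. In floxed tumors 40 of 43 members were lower in CD8 than in CD4 cells, where 20.2% of all tested genes were lower and 18.9% higher, and the median log2 fold change of the members was -1.82 against 0.04 over all genes. The groups of 3 libraries did not overlap for 39 of 43 members, against 42.9% of all genes. Trim25, Helz2 and Ifi44 were not called. For Ifi44 this depended on the fit, since DESeq2 (-1.39, adjusted p = 0.0388) and limma voom (-1.47, 0.0379) called it lower in CD8 cells. It was also called lower without the filter on low counts, with either replicate block and without floxed CD8 replicate 3 (-2.26, 0.00651). In deficient tumors 11 of 43 members were lower in CD8 cells (9.39% of all genes, with 6.21% higher) with a median of -0.49 against -0.02, and 14 members did not overlap (39.9% of all genes). In treated deficient tumors 32 of 43 were lower (11% of all genes, with 9.36% higher) with a median of -1.06 against -0.01, and 35 did not overlap (42.4%). Each of these calls was toward lower levels in CD8 cells, and estimates above 0 were 2 in floxed, 4 in deficient and 1 in treated deficient tumors.

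The count in deficient tumors depended on single libraries. It was 4 without deficient CD4 replicate 2, 5 without CD4 replicate 3, 4 without CD8 replicate 1 and 7 without CD8 replicate 3. Same-numbered CD8 and CD4 libraries of deficient tumors deviated together over all 14080 genes (correlations of 0.11 to 0.18), and a fit with the replicate number within each condition as a block called 19 members in place of 11. Overlap between the deficient groups takes no account of a possible pairing by replicate number. The block within conditions was added after the data had been seen, and the share of all genes called with it was not counted. Isg20, Ifitm1 and Ifi27l2a were the 3 members called in deficient tumors under every alternative.

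Macrophage and dendritic transcripts moved with these comparisons. The macrophage sum was 16.5 times higher in floxed CD4 than in floxed CD8 cells, 1.97 times higher in deficient and 6.74 times higher in treated deficient cells. The sum of 14 dendritic cell markers, with Bst2 left out because it is a member, was 27.8, 3.57 and 7.35 times higher. Of the 20 macrophage markers 19 were lower in CD8 than in CD4 cells of floxed, 7 of deficient and 19 of treated tumors. Of 15 dendritic cell markers, counted with Bst2, 12, 10 and 8 were lower, and 1 was higher in treated tumors. The part of these transcripts in the differences of the members was not tested. In sorted bulk cells, fewer cells that respond and less RNA per responding cell cannot be told apart.

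**Figure D2:**
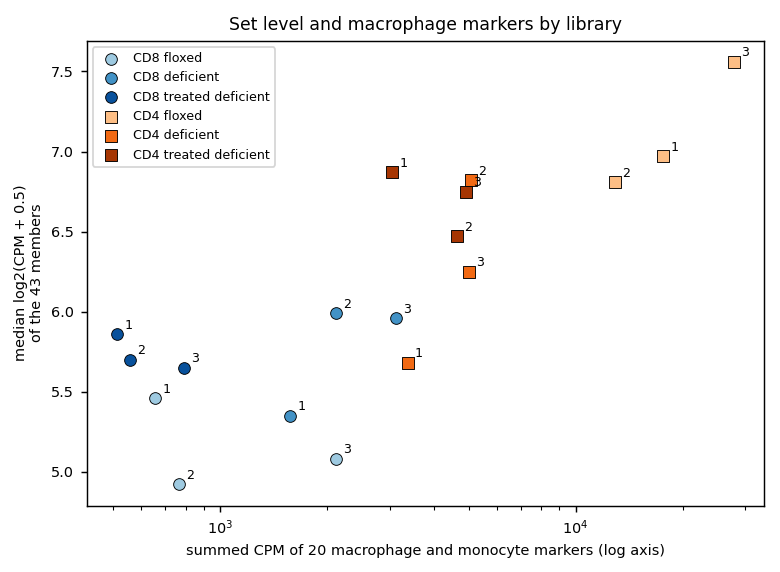
Set level of the 43 members (median log2(CPM + 0.5), y axis) against the summed CPM of 20 macrophage and monocyte markers (x axis, log scale), one point per library with its replicate number. The floxed CD4 libraries lie at the upper right. Treated CD8 libraries (514.2 to 793.3 CPM) overlap the floxed CD8 libraries (656.5 to 2122 CPM) in marker sum. Their set levels of 5.65 to 5.86 lie above those of the floxed CD8 libraries.

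Floxed CD4 replicate 3 had both the highest marker sum (27820 CPM) and the highest set level (7.56), and the 3 floxed CD4 libraries had the 3 highest marker sums. Treated CD8 libraries had marker sums of 514.2, 557.1 and 793.3 CPM and set levels of 5.86, 5.70 and 5.65. Floxed CD8 libraries had sums of 656.5, 766.1 and 2122 CPM and set levels of 5.46, 4.92 and 5.08. Deficient replicate 1 had the lowest sum and the lowest set level of its group in CD8 (1573 CPM, 5.35) and CD4 cells (3367 CPM, 5.68). Treated CD4 replicate 1 had the lowest sum (3047 CPM) and the highest set level (6.87) of its group. Deficient CD8 replicate 3, with 3124 CPM, had a set level of 5.96. No test was made of set level against marker sum.

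The Ifit genes (a cluster on chromosome 19 whose products bind viral RNA and block its translation) were lower in CD8 than in CD4 cells in floxed and treated tumors (4 of 4 in each), and 1 of the 4 was lower in deficient tumors. Ifit1 (ENSMUSG00000034459, chromosome 19, 34640871 to 34650009, plus strand) had 14.7, 19.9 and 23.9 CPM in floxed, 36.2, 61.3 and 40.9 in deficient and 48.8, 55.04 and 52.5 in treated CD8 libraries. In CD4 cells it had 111, 105 and 125, then 50.8, 123 and 75.5, then 173, 137 and 136 CPM. Its groups overlapped in deficient tumors alone, and its log2 fold changes, CD8 minus CD4, with the standard error of the fit, were -2.54 ± 0.27 (adjusted p = 9.41e-07), -0.85 ± 0.26 (adjusted p = 0.0312) and -1.52 ± 0.26 (adjusted p = 0.000415) in floxed, deficient and treated tumors. The call in deficient tumors was lost without CD4 replicate 2 (-0.44, adjusted p = 0.256), CD4 replicate 3 (-0.88, 0.0654), CD8 replicate 1 (-0.69, 0.145) or CD8 replicate 3 (-0.76, 0.127), and in a fit of only the groups compared (-0.82, 0.188).

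Ifit2, the Ifit gene with the highest level per kb (44.5 CPM per kb), had 62.01, 75.4 and 67.7 CPM in floxed, 88.4, 135 and 105 in deficient and 109, 105 and 131 in treated CD8 libraries. In CD4 cells the values were 292, 403 and 474, then 105, 172 and 171, then 189, 235 and 226 CPM. Floxed CD4 libraries stood above all others, and the floxed difference was -2.51 ± 0.21 (adjusted p = 2.58e-08). For Ifit3 the CD8 values were 20.2, 19.1 and 12.5, then 44.4, 79.2 and 71.1, then 50.8, 46.8 and 51.9 CPM, and the CD4 values 89.7, 118 and 129, then 30.1, 86.1 and 59.7, then 129, 87.95 and 94.5 CPM. The deficient groups of Ifit3 overlapped (0.15 on the log2 scale, not called), against -2.68 ± 0.33 (adjusted p = 6.6e-06) in floxed and -1.06 ± 0.30 (adjusted p = 0.0208) in treated tumors. The last call was lost without CD4 replicate 1 (-0.87, adjusted p = 0.0893) or any 1 of the CD8 replicates (-1.01 to -1.08, 0.063 to 0.0718). Ifit3 and Ifit3b share sequence, since 51.2% of the 50-base stretches of Ifit3 occur in Ifit3b, and reads that matched both were not counted, per the settings in the file headers, so that their levels are uncertain.

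The Oas genes make or resemble the enzymes that sense double-stranded RNA and switch on RNA decay. All 5 were lower in floxed CD8 cells, with log2 fold changes of -3.98 to -1.60. Oasl1, which lacks the enzyme activity and restrains Irf7 translation, had 5.56, 6.66 and 13.7 CPM in floxed CD8 and 86.8, 76.3 and 85.1 in floxed CD4 libraries. It was at 13.3, 22.3 and 22.8 against 13.5, 30.7 and 15.6 CPM in deficient and 9.39, 12.4 and 13.9 against 35.9, 26.2 and 36.1 in treated tumors. The log2 fold change went from -3.29 ± 0.34 (adjusted p = 3.84e-07) through -0.05, which was not called, to -1.48 ± 0.33 (adjusted p = 0.00302). Oasl2, a relative that also carries ubiquitin-like domains, stood at 9.84, 6.76 and 9.61 CPM in floxed, 12.5, 33.1 and 25.9 in deficient and 10.6, 8.28 and 13.4 in treated CD8 libraries. In CD4 cells it was at 94.7, 98.4 and 217, then 36.5, 55.5 and 35.3, then 51.9, 48.5 and 64.2 CPM, and no CD8 library reached the CD4 libraries of its condition. Its fold changes were -3.98 ± 0.39 (adjusted p = 7.01e-07) in floxed and -2.30 ± 0.37 (adjusted p = 0.000368) in treated tumors.

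Oas1a, an active synthetase, had 6.70, 8.52 and 15.8, then 11.7, 25.4 and 17.9, then 12.9, 21.9 and 23.4 CPM in CD8 and 70.7, 66.4 and 122, then 29.2, 52.1 and 41.00, then 59.2, 55.4 and 54.9 in CD4 cells of floxed, deficient and treated tumors. It was lower in CD8 cells by log2 fold changes of -3.08 ± 0.36 (adjusted p = 3.52e-06), -1.15 ± 0.34 (adjusted p = 0.0292) and -1.57 ± 0.34 (adjusted p = 0.00355). Leaving out CD4 replicate 2 or 3, or CD8 replicate 1 or 3, of the deficient tumors took the second call away (-0.89 to -1.13, adjusted p 0.0823 to 0.148). As 57.6% of its 50-base stretches occur in Oas1g, its level is uncertain. Oas2, whose CD8 values were 9.84, 4.996 and 17.98, then 10.1, 20.2 and 27.3, then 5.34, 4.55 and 4.30 CPM and CD4 values 35.00, 44.9 and 83.1, then 12.5, 26.1 and 26.02, then 29.3, 30.1 and 33.8, differed by -2.34 ± 0.45 (adjusted p = 0.000523) in floxed and -2.70 ± 0.48 (adjusted p = 0.000765) in treated tumors, where the CD8 libraries were the lowest of all 18 together with floxed CD8 replicate 2.

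The 6 sensor genes had smaller differences, with a median of -1.09 in floxed tumors. Zbp1, a sensor of left-handed nucleic acid that can start necroptosis, had 101, 104 and 94.4 CPM in floxed CD8 and 290.1, 233 and 351 in floxed CD4 libraries (-1.55 ± 0.20 (adjusted p = 4.03e-06)). In deficient tumors it was at 138, 232 and 176 against 175, 289.6 and 221 and in treated tumors at 186, 195 and 152 against 329, 261 and 307 CPM (-0.76 ± 0.19 (adjusted p = 0.00819), and -0.64 with an adjusted p of 0.0514 without treated CD8 replicate 3). Ifih1 (MDA5, a sensor of long double-stranded RNA) had 47.05, 60.6 and 35.4, then 42.8, 66.4 and 68.2, then 66.6, 76.6 and 67.5 CPM in CD8 and 148, 164 and 222, then 71.3, 138 and 108, then 165, 135 and 147 in CD4 cells. The CD8 libraries lay below the CD4 libraries of their condition throughout. Fold changes were -1.89 ± 0.24 (adjusted p = 5.55e-06), -0.84 ± 0.23 (adjusted p = 0.0204) and -1.09 ± 0.23 (adjusted p = 0.00273), and the second was lost without CD4 replicate 2 (-0.59, adjusted p = 0.138), CD4 replicate 3 (-0.79, 0.0689) or CD8 replicate 1 (-0.64, 0.108), and in a fit of only the groups compared (-0.81, 0.094). Dhx58 (LGP2, a helper of that sensor) was at 24.8, 23.2 and 33.3, then 22.3, 28.3 and 29.98, then 31.01, 22.3 and 29.7 CPM in CD8 and 78.1, 69.7 and 103, then 31.04, 59.2 and 34.2, then 66.6, 78.6 and 56.3 in CD4 cells, with called differences of -1.62 ± 0.23 (adjusted p = 1.08e-05) in floxed and -1.25 ± 0.23 (adjusted p = 0.000583) in treated tumors. Ddx58 (RIG-I) and Eif2ak2 (the kinase PKR) differed by -0.60 and -0.63 in floxed tumors. These calls were lost without floxed CD8 replicate 3 for Ddx58 (adjusted p = 0.051) and without floxed CD4 replicate 3 (0.124) or CD8 replicate 1 (0.0729), and in a fit of only the groups compared (0.0555), for Eif2ak2. Trim25, the ligase that activates RIG-I, was the one sensor gene with no call in the 3 conditions (0.04, 0.41 and -0.04).

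Isg15 is a small protein that is attached to others like ubiquitin, and Usp18 removes it and also shuts off the receptor. Isg15 was at 7.41, 0.980 and 5.70 CPM in floxed, 3.18, 10.9 and 6.98 in deficient and 5.43, 6.62 and 5.87 in treated CD8 libraries, and at 26.3, 21.4 and 38.8, then 8.44, 12.1 and 9.33, then 20.5, 31.6 and 16.3 in CD4 cells. It differed by -2.65 ± 0.51 (adjusted p = 0.00047) in floxed and -1.93 ± 0.51 (adjusted p = 0.0109) in treated tumors, and the latter call was lost without CD8 replicate 1 (-1.88, adjusted p = 0.0572). Usp18 had 20.5, 17.2 and 21.01, then 38.2, 59.3 and 46.5, then 45.5, 47.6 and 43.5 CPM in CD8 and 53.7, 59.8 and 94.8, then 28.2, 71.00 and 49.8, then 82.1, 65.4 and 69.9 in CD4 cells. The floxed groups were far apart (-1.82 ± 0.27 (adjusted p = 2.9e-05)), while the deficient groups overlapped (-0.05, not called).

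Among the direct effectors against viruses, Rsad2 (viperin, an enzyme that makes a chain-ending nucleotide; ENSMUSG00000020641, chromosome 12, 26442753 to 26456452, minus strand) showed the largest floxed difference. It had 12.97, 9.89 and 5.70 CPM in floxed, 27.6, 63.1 and 30.9 in deficient and 28.7, 29.8 and 43.7 in treated CD8 libraries, against 247, 268 and 229.7, then 32.2, 112 and 63.9, then 106, 129 and 145 in CD4 cells. The log2 fold change was -4.69 ± 0.47 (adjusted p = 2.46e-06) in floxed and -1.88 ± 0.41 (adjusted p = 0.00513) in treated tumors, and -0.78 without a call in deficient tumors, where the libraries overlapped. Cmpk2, a nucleotide kinase whose start lies 12.75 kb from that of Rsad2 on the other strand, differed by -2.66, -0.60 (not called) and -1.14.

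Ifitm3, which keeps viruses from fusing with endosomes, had 13.5, 11.1 and 38.99 CPM in floxed, 27.9, 45.5 and 62.3 in deficient and 14.4, 11.2 and 18.04 in treated CD8 libraries, against 275, 175 and 511, then 59.7, 117 and 110.3, then 61.9, 74.7 and 97.95 in CD4 cells. Floxed CD4 replicate 3 was the highest library. Its differences were -3.95 ± 0.54 (adjusted p = 6.21e-05) in floxed and -2.38 ± 0.53 (adjusted p = 0.00627) in treated tumors. Rtp4, a receptor transport protein, was at 14.5, 18.3 and 23.1, then 43.8, 57.7 and 57.6, then 36.4, 36.4 and 42.3 CPM in CD8 and 152, 109 and 203, then 51.7, 98.1 and 81.4, then 117, 79.2 and 107 in CD4 cells (-3.05 ± 0.26 (adjusted p = 5.33e-08) in floxed, -1.40 ± 0.24 (adjusted p = 0.000463) in treated tumors). Its deficient groups overlapped.

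Of the 10 direct effectors 3 were called lower in CD8 cells of deficient tumors, Isg20, Ifitm1 and Bst2. The call of Bst2 was lost in 4 of 14 alternatives (-0.53 to -0.68, adjusted p 0.0575 to 0.123). Isg20, an exonuclease that degrades single-stranded RNA (ENSMUSG00000039236, chromosome 7, 78913424 to 78920396, plus strand), was at 14.97, 14.7 and 6.41 CPM in floxed, 6.25, 11.6 and 4.76 in deficient and 17.2, 18.2 and 18.1 in treated CD8 libraries. In CD4 cells it was at 60.2, 46.3 and 34.1, then 33.6, 62.3 and 47.8, then 69.3, 47.6 and 68.3 CPM, and no CD8 library reached any CD4 library. Its log2 fold changes were -1.95 ± 0.33 (adjusted p = 0.000112), -2.65 ± 0.34 (adjusted p = 3.11e-05) and -1.80 ± 0.32 (adjusted p = 0.000606). Ifitm1, a surface relative of Ifitm3 whose start lies 43.55 kb from it, had 7.27, 4.60 and 4.09 CPM in floxed, 4.01, 3.32 and 1.75 in deficient and 22.4, 16.6 and 11.01 in treated CD8 libraries, against 15.5, 13.6 and 12.9, then 15.5, 15.4 and 19.8, then 14.7, 15.7 and 13.5 in CD4 cells. The CD4 groups overlapped. CD8 cells were below them in floxed (-1.39 ± 0.31 (adjusted p = 0.00135)) and deficient tumors (-2.44 ± 0.33 (adjusted p = 2.77e-05)) and overlapped them in treated tumors (0.20, not called).

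The Schlafen genes, which in T cells are known for holding cells in quiescence (Slfn1) and for cutting transfer RNA in some members, lie together on chromosome 11. Slfn1 had 61.9, 76.6 and 58.4, then 152, 182 and 145, then 144, 142 and 131 CPM in CD8 and 297, 219.6 and 379, then 186, 279 and 251, then 318, 280.4 and 273 in CD4 cells. No CD8 library reached the CD4 libraries of its condition, and the differences were -2.18 ± 0.18 (adjusted p = 1.44e-08), -0.58 ± 0.17 (adjusted p = 0.0259) and -1.06 ± 0.17 (adjusted p = 0.000189). The second was lost without CD4 replicate 2 or 3, or CD8 replicate 1 or 3, of the deficient tumors (-0.45 to -0.54, adjusted p 0.0973 to 0.151). Slfn5 had 46.3, 26.4 and 27.2, then 69.9, 99.5 and 120.1, then 60.99, 67.5 and 49.6 CPM in CD8 and 281, 303 and 458, then 143, 234 and 225, then 252, 262 and 225 in CD4 cells. The floxed difference of Slfn5 (-3.38 ± 0.28 (adjusted p = 8.06e-08)) was the largest of the 3, and those in deficient and treated tumors were -1.06 ± 0.25 (adjusted p = 0.00913) and -2.06 ± 0.26 (adjusted p = 3.77e-05). Without deficient CD4 replicate 2 or CD8 replicate 1 the deficient value was -0.92 (adjusted p = 0.0503) or -0.86 (0.0511). Slfn8 was at 99.1, 77.2 and 76.9, then 107, 134 and 123, then 136, 107 and 106 CPM in CD8 and 189.8, 202 and 244, then 106, 177 and 146, then 227, 195 and 182 in CD4 cells (-1.33 ± 0.17 (adjusted p = 3.4e-06) in floxed tumors).

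Ifi204, a DNA-binding p200 protein that signals through the adaptor STING (ENSMUSG00000073489, chromosome 1, 173747293 to 173766943, minus strand), showed the largest difference of all 43 members. It had 6.13, 9.502 and 9.97 CPM in floxed, 19.2, 42.9 and 43.5 in deficient and 17.6, 19.5 and 19.7 in treated CD8 libraries, against 342, 318 and 535, then 53.9, 112 and 118, then 90.6, 96.7 and 124 in CD4 cells. The groups did not overlap in any condition, with log2 fold changes of -5.54 ± 0.39 (adjusted p = 5.18e-08), -1.43 ± 0.33 (adjusted p = 0.00831) and -2.46 ± 0.35 (adjusted p = 0.00016). The deficient call was lost in a fit of only the groups compared (-1.40, adjusted p = 0.0986). Of its 50-base stretches 20% occur elsewhere, mostly in Ifi211, so that its level is uncertain. Its relative Ifi203 differed by -0.50 in floxed tumors, and leaving out 1 of 4 floxed libraries ended that call (CD4 replicate 1 or 3, or CD8 replicate 2 or 3, adjusted p 0.0717 to 0.188), as did a fit of only the groups compared (0.143) and a replicate block (0.0536).

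Of the 7 nuclear and ubiquitin cofactors 6 were lower in floxed CD8 cells. Phf11d, a zinc finger protein, stood at 1.14, 2.06 and 6.41, then 4.48, 10.7 and 11.7, then 2.93, 3.72 and 4.82 CPM in CD8 and 43.1, 55.9 and 118, then 11.8, 23.4 and 22.3, then 10.4, 18.4 and 21.4 in CD4 cells (-4.57 ± 0.59 (adjusted p = 1.42e-05) in floxed and -2.11 ± 0.57 (adjusted p = 0.0147) in treated tumors). The treated call was lost without CD4 replicate 3 (-1.87, adjusted p = 0.0655) or CD8 replicate 1 (-1.91, 0.0903), and with limma voom (-2.03, 0.0564). Trim30a, a ubiquitin ligase that damps toll-like receptor signals, had 165, 178 and 129, then 177, 232 and 194, then 246, 246 and 232 CPM in CD8 and 393, 331 and 504, then 253, 341 and 305, then 424, 394 and 379 in CD4 cells, with differences of -1.38 ± 0.16 (adjusted p = 6.67e-07), -0.58 ± 0.15 (adjusted p = 0.0137) and -0.73 ± 0.15 (adjusted p = 0.00189). The deficient call of Trim30a was lost without CD4 replicate 2 or 3, or CD8 replicate 1 or 3 (-0.47 to -0.54, adjusted p 0.0535 to 0.0912). Parp9 and Dtx3l, partners in one ubiquitin ligase complex whose starts lie 0.681 kb apart on opposite strands, had small differences. Dtx3l had 259, 231 and 198 CPM in floxed, 279, 344 and 298 in deficient and 304, 291 and 262 in treated CD8 libraries, and 338, 334 and 381, then 274, 348 and 355, then 462, 356 and 429.5 in CD4 cells. Their floxed differences, both called, were -0.62 for Dtx3l and -0.86 for Parp9. Helz2, a nuclear helicase, was not called in floxed tumors (0.04), with 329, 131 and 121 CPM in the CD8 libraries, of which replicate 1 stood apart. Without that library Helz2 was called lower in CD8 cells (-0.58, adjusted p = 0.00144).

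Ifi27l2a, a small mitochondrial and nuclear membrane protein (ENSMUSG00000079017, chromosome 12, 103442167 to 103443680, minus strand), is the most abundant member per kb. It had 63.4, 108 and 116 CPM in floxed, 75.7, 130.2 and 115 in deficient and 153, 182 and 144 in treated CD8 libraries, and 567, 397 and 659, then 340.1, 499 and 519, then 779.8, 702 and 648 in CD4 cells. Every CD8 library lay below every CD4 library. The log2 fold changes were -2.50 ± 0.25 (adjusted p = 7.92e-07), -2.08 ± 0.25 (adjusted p = 2.48e-05) and -2.16 ± 0.25 (adjusted p = 1.39e-05).

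**Figure D3:**
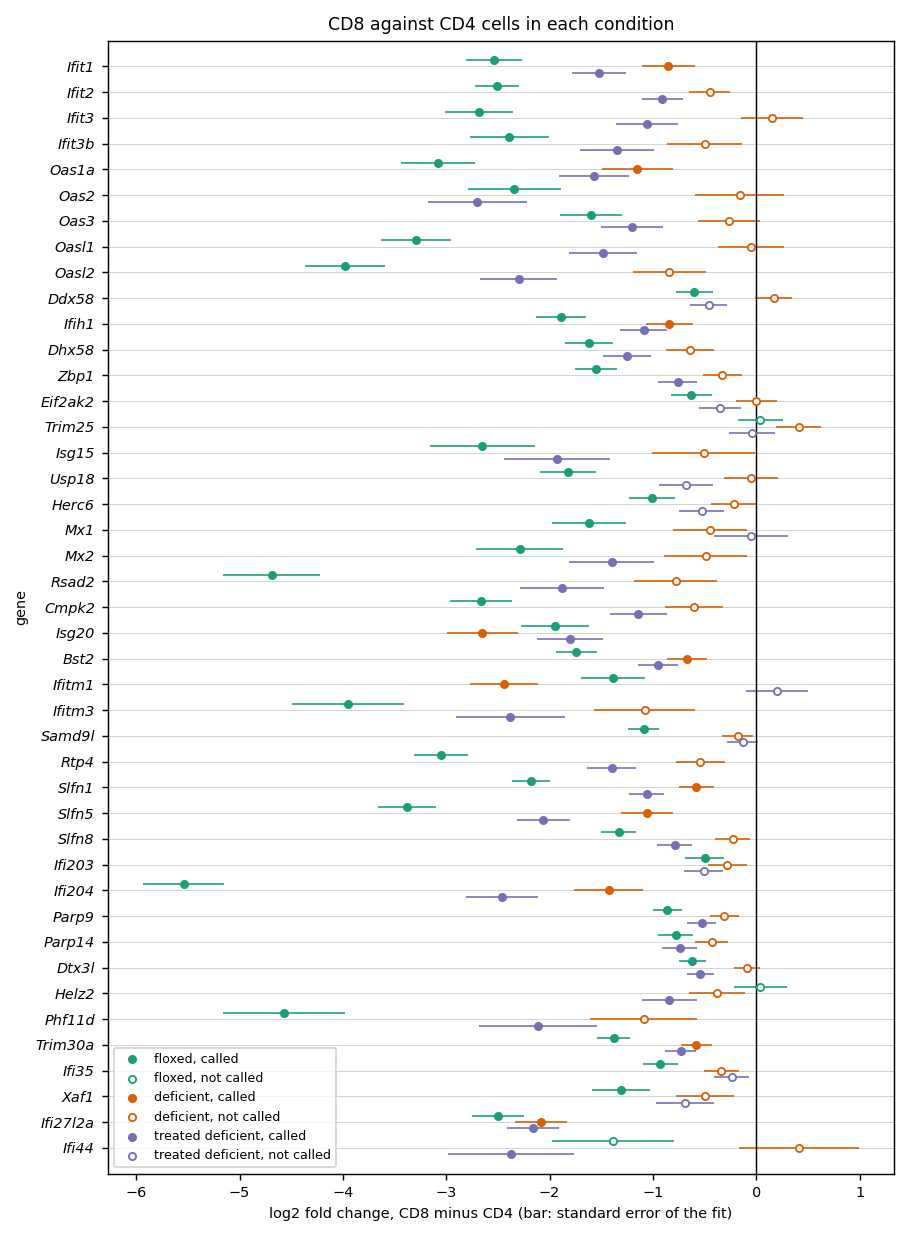
Log2 fold change, CD8 minus CD4, of each of the 43 members in floxed, deficient and treated deficient tumors (x axis, bars are standard errors of the fit, filled points are called at an adjusted p under 0.05). Most floxed points lie farthest to the left and most deficient points nearest to 0, while Isg20 and Ifi27l2a lie near or below -1.80 in all 3 conditions.

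The deletion of miR-155 went with opposite changes in the cell types. In CD8 cells 18 of 43 members rose (9.65% of all genes rose and 9.61% fell) and the median log2 fold change was 0.62 against -0.01 over all genes. In CD4 cells 16 of 43 fell (7.06% of all genes fell and 4.61% rose) with a median of -0.57 against 0.01. Estimates were above 0 for 37 members in CD8 and below 0 for 41 in CD4 cells. The groups did not overlap for 18 members in CD8 (34.2% of all genes) and 21 in CD4 cells (28%). Without deficient CD8 replicate 2, 10 members rose in CD8 cells and 1 fell (Isg20, -1.13, adjusted p = 0.0392), and without floxed CD8 replicate 3, 18 rose and 2 fell (Isg20, -0.96, 0.0396, and Helz2, -0.71, 0.0482). For Helz2 floxed CD8 replicate 1 held 329 CPM. Replicates 2 and 3 held 131 and 121 CPM, and the deficient CD8 libraries 131, 155 and 132 CPM. The count in CD4 cells was 6 without floxed CD4 replicate 3, 7 without deficient CD4 replicate 1 and 10 without deficient CD4 replicate 3.

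The 18 that rose in CD8 cells were all 4 Ifit genes, Oasl1, Oasl2, Ddx58, Zbp1, Usp18, Rsad2, Cmpk2, Samd9l, Rtp4, Slfn1, Slfn5, Slfn8, Ifi204 and Dtx3l. Rsad2 rose most (2.07 ± 0.44 (adjusted p = 0.0053)), followed by Ifi204 (2.04 ± 0.36 (adjusted p = 0.00132)) and Ifit3 (1.90 ± 0.32 (adjusted p = 0.000711)). Slfn5 (1.53 ± 0.26 (adjusted p = 0.000724)), Rtp4 (1.51 ± 0.25 (adjusted p = 0.00044)), Usp18 (1.30 ± 0.27 (adjusted p = 0.00239)), Slfn1 (1.28 ± 0.18 (adjusted p = 4.93e-05)), Ifit1 (1.25 ± 0.27 (adjusted p = 0.00337)) and Zbp1 (0.87 ± 0.19 (adjusted p = 0.0039)) also rose. These 9 calls, and that of Samd9l (0.81), were made under every alternative. The other 8 were lost without deficient CD8 replicate 2, where Ifit2 went from 0.68 to 0.50, Ifit3b from 1.51 to 1.14, Oasl1 from 1.20 to 1.08, Oasl2 from 1.46 to 1.14, Ddx58 from 0.54 to 0.45, Cmpk2 from 0.91 to 0.61, Slfn8 from 0.53 to 0.45 and Dtx3l from 0.42 to 0.33. Without deficient CD8 replicate 3 the calls of Oasl1 (1.06), Ddx58 (0.54), Cmpk2 (0.90), Slfn8 (0.50) and Dtx3l (0.43) were lost. Without floxed CD8 replicate 1 those of Ifit2 (0.60), Oasl1 (0.96) and Cmpk2 (0.87) were lost. Without floxed CD8 replicate 2 those of Oasl1 (1.01), Oasl2 (1.27), Ddx58 (0.48), Cmpk2 (0.69), Slfn8 (0.45) and Dtx3l (0.41) were lost, and without floxed CD8 replicate 3 those of Ifit2 (0.67), Ddx58 (0.43), Slfn8 (0.47) and Dtx3l (0.33). A fit of only the groups compared did not call Oasl1 (1.21), Ddx58 (0.55), Cmpk2 (0.91), Slfn8 (0.54) and Dtx3l (0.43), and limma voom did not call Ifit3b (1.34), Oasl2 (1.37) and Cmpk2 (0.93). Isg20, Ifitm1 and Helz2 had the lowest estimates (-0.68, -0.79 and -0.47, none called).

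The 16 that fell in CD4 cells were Ifit2, Oas1a, Oas3, Oasl1, Oasl2, Ifih1, Dhx58, Rsad2, Cmpk2, Bst2, Ifitm3, Rtp4, Slfn5, Slfn8, Ifi204 and Phf11d. Ifi204 (-2.08 ± 0.32 (adjusted p = 0.000949)), Oasl1 (-2.04 ± 0.32 (adjusted p = 0.00051)), Rsad2 (-1.84 ± 0.40 (adjusted p = 0.0094)), Oasl2 (-1.67 ± 0.34 (adjusted p = 0.00509)), Ifit2 (-1.38 ± 0.20 (adjusted p = 0.00025)) and Dhx58 (-1.0 ± 0.23 (adjusted p = 0.00664)) were called under every alternative. The other 10 lost their call under at least 1, among them Phf11d (-1.39, adjusted p = 0.115) and Rtp4 (-0.77, 0.065) without floxed CD4 replicate 3, the library with the highest macrophage sum, and the same 2 genes without deficient CD4 replicate 1 (-1.68, 0.103, and -0.80, 0.0531). Of 13 alternatives Slfn5 lost its call in 7, Ifih1, Ifitm3 and Oas3 in 5, and Slfn8 in 4. Bst2 and Oas1a lost theirs in 3, Phf11d and Rtp4 in 2, and Cmpk2 in 1. Bst2, tetherin, which holds budding viruses at the cell surface, was at -0.65, and at -0.42 (adjusted p = 0.208) without floxed CD4 replicate 3.

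The difference of the deletion effect between the cell types was tested directly. It is the same contrast as the difference between the floxed and the deficient gap of CD8 and CD4 cells. It was called for 25 of 43 members, each with the larger value in CD8 cells (6.89% of all genes, with 4.72% in the opposite direction), with a median of 1.22 against -0.04 over all genes. Ifi204 (4.11 ± 0.49 (adjusted p = 0.000131)), Rsad2 (3.91 ± 0.60 (adjusted p = 0.000822)), Phf11d (3.47 ± 0.77 (adjusted p = 0.00745)), Oasl1 (3.24 ± 0.46 (adjusted p = 0.000185)), Oasl2 (3.13 ± 0.51 (adjusted p = 0.000822)) had the highest values. They were followed by Ifitm3 (2.87 ± 0.71 (adjusted p = 0.0181)) and Ifit3 (2.83 ± 0.44 (adjusted p = 0.000595)). The call of Ifitm3 was lost without floxed CD4 replicate 3 (2.36, adjusted p = 0.0516), floxed CD8 replicate 1 (2.64, 0.0533) or deficient CD8 replicate 3 (2.57, 0.0531), and in a fit of only the groups compared (2.85, 0.052). All 4 Ifit, all 5 Oas and all 3 Schlafen genes were called, as were 7 of 10 direct effectors and 2 of 6 sensors (Zbp1 and Ifih1). Of the 25 members 17 were called under every alternative, and Ifih1, Ifit3b, Ifitm3, Mx2, Oas1a, Oas2, Oas3 and Trim30a lost their call under at least 1. Isg20 (-0.71 ± 0.46), Ifitm1 (-1.05 ± 0.45) and Helz2 (-0.41 ± 0.37) were the members with a value below 0, and none of them was called.

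**Figure D4:**
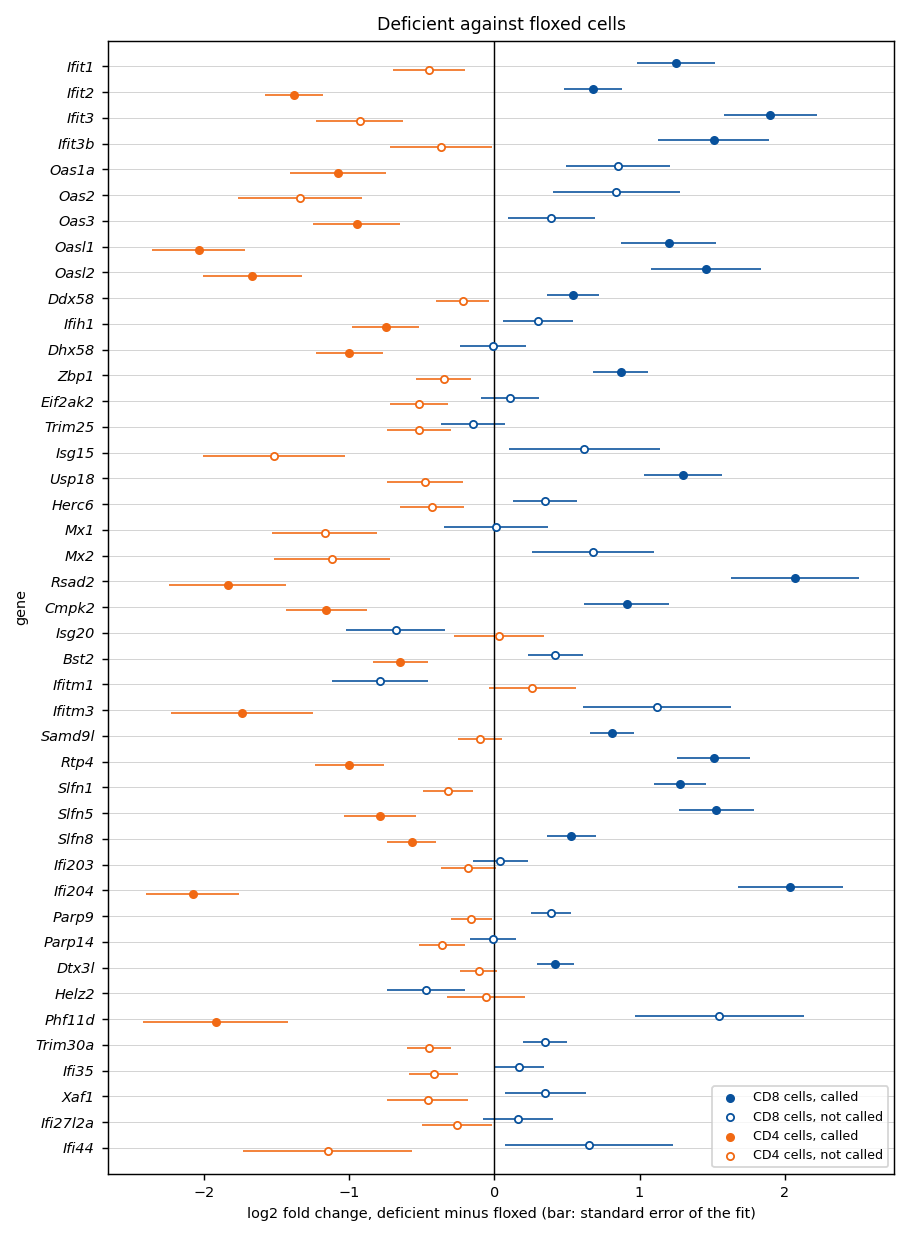
Log2 fold change, deficient minus floxed, of each member in CD8 and in CD4 cells (x axis, bars are standard errors of the fit, filled points are called at an adjusted p under 0.05). Nearly all CD8 points lie to the right of 0 and nearly all CD4 points to the left, and Isg20 and Ifitm1 are reversed without a call in either cell type.

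Transcripts of other cell types also differed between floxed and deficient libraries. The macrophage sum went from a mean of 1182 to 2272 CPM in CD8 cells, where 9 of 20 markers rose, and from 19450 to 4478 CPM in CD4 cells, where 17 of 20 fell. The dendritic sum went from 426.7 to 1247 CPM and from 11840 to 4451 CPM. Of 15 dendritic markers, counted with Bst2, 5 rose and 0 fell in CD8 cells, and 6 fell and 1 rose in CD4 cells. Melanoma markers, 15 genes, went from 200.3 to 2821 CPM in CD8 and from 375 to 3678 CPM in CD4 cells, upward in both. The part of these transcripts in the changes of the members was not tested.

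**Figure D5:**
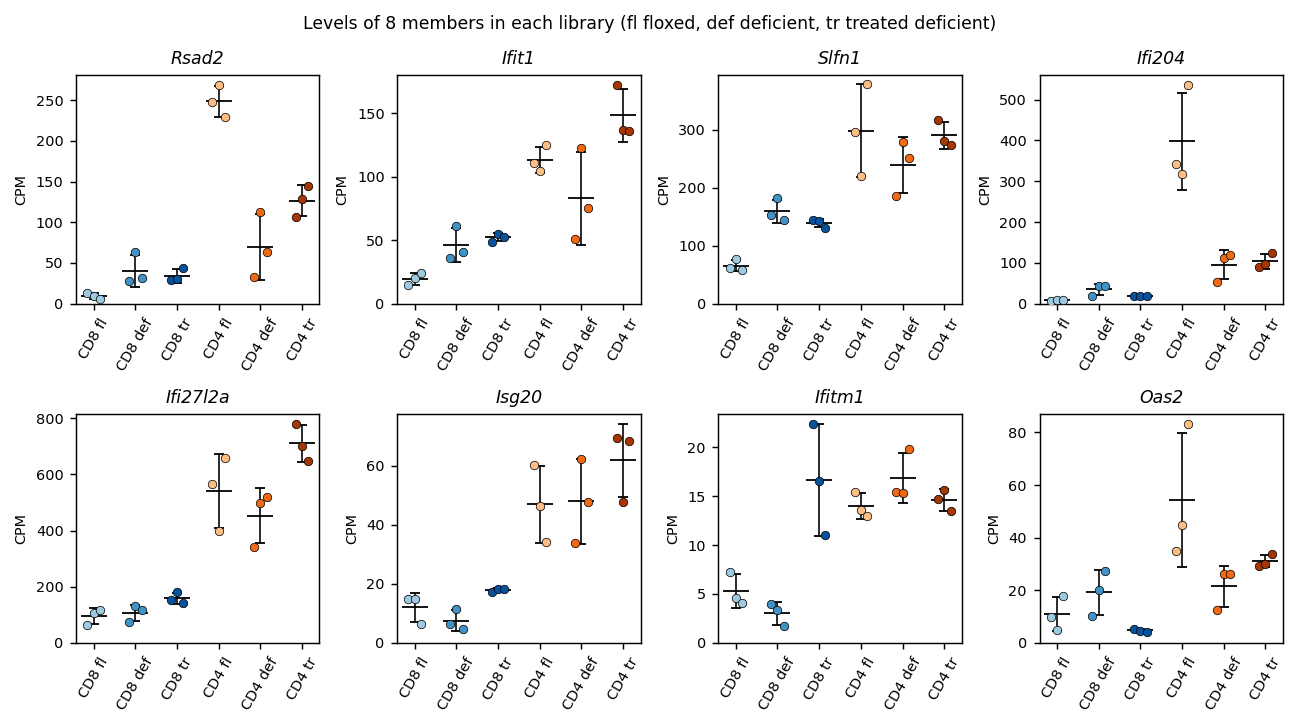
CPM of 8 members in each library (y axis, linear and starting at 0), with points for the 3 replicates of each group and a bar for the mean with 1 SD. Rsad2, Ifit1, Slfn1 and Ifi204 are lowest in floxed CD8 cells, Ifi27l2a and Isg20 stay below all CD4 libraries in each CD8 group, and Ifitm1 reaches 22.4 CPM in treated CD8 libraries against at most 4.01 CPM in untreated deficient ones.

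The antibodies were compared in deficient cells. In CD8 cells 2 of 43 members rose and 1 fell (8.25% and 5.53% of all genes), the median log2 fold change was -0.07 against -0.03, and 12 members did not overlap (44.1% of all genes). Ifitm1 rose, from 4.01, 3.32 and 1.75 to 22.4, 16.6 and 11.01 CPM, without overlap (2.44 ± 0.33 (adjusted p = 5.56e-05), a 5.42-fold increase). This call was made under every alternative, with values of 2.11 to 2.71. Isg20 rose from 6.25, 11.6 and 4.76 to 17.2, 18.2 and 18.1 CPM (1.23 ± 0.34 (adjusted p = 0.023)), and the call was lost without any 1 of 5 libraries, deficient replicate 1 (1.12) or 3 (1.02) or treated replicate 1 (1.24), 2 (1.21) or 3 (1.23), with adjusted p-values of 0.0503 to 0.091. Oas2 fell from 10.1, 20.2 and 27.3 to 5.34, 4.55 and 4.30 CPM (-1.99 ± 0.48 (adjusted p = 0.0108)), a call that was lost without deficient CD8 replicate 3 (-1.64, adjusted p = 0.0566), treated CD8 replicate 1 (-2.13, 0.052) or treated CD8 replicate 3 (-1.89, 0.0542), and with limma voom (-1.81, 0.0641). The count of 3 was 1, Ifitm1, without any of these 3 libraries, and without deficient CD8 replicate 1 it was 5, of which 1 rose and 4 fell. The balance turned to lower with other fits: 2 rose and 6 fell with DESeq2, 4 rose and 8 fell both without the filter on low counts and in a fit of only the groups compared, and 2 rose and 5 fell with a replicate block. Ifitm3 and Oasl2 were among the members that fell in each of these 4 fits. The share of all genes called in these 4 fits was not counted. The macrophage sum went from 2272 to 621.5 CPM, with 15 of 20 markers lower. The dendritic sum went from 1247 to 407 CPM, with 6 of 15 markers, counted with Bst2, lower and 1 higher. The melanoma sum went from 2821 to 943 CPM. The part of these transcripts in the fall of Oas2 was not tested.

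In CD4 cells no member was called by edgeR (0.0852% of all genes rose and 0.0568% fell), nor by DESeq2 or limma voom. At an unadjusted p under 0.05 there were 21 members, all higher with the antibodies (5.5% of all genes were higher and 5.8% lower at that threshold), 40 of 43 estimates were above 0, and the median was 0.46 against -0.01 over all genes. The groups did not overlap for 19 members, against 20% of all genes. Rsad2 was at 32.2, 112 and 63.9 CPM in untreated and 106, 129 and 145 in treated libraries (0.86 ± 0.40 (adjusted p = 0.432)). Ifit1 was at 50.8, 123 and 75.5 CPM in untreated and 173, 137 and 136 in treated libraries (0.84 ± 0.25 (adjusted p = 0.205)). In both genes deficient replicate 2 lay near the treated libraries and replicate 1 far below them. The macrophage sum was 4478 CPM without and 4191 CPM with antibodies, the dendritic sum 4451 and 2992 CPM and the melanoma sum 3678 and 1142 CPM, and their part in these values was not tested. Without the filter on low counts 11 members were called, and without deficient CD4 replicate 2 the count was 1. The share of all genes called in these 2 fits was not counted, so neither count can be read as particular to the members.

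The difference of the antibody effect between the cell types was called for Ifitm1 alone (2.64 ± 0.44 (adjusted p = 0.00461), 0.575% of all genes with the larger value in CD8 cells and 0.227% in CD4 cells). The call was made under every alternative, with values of 2.29 to 2.90. Some alternatives also called members in the opposite direction, 11 without the filter on low counts, 8 with the replicate block within conditions, 2 each with DESeq2 (Oas2 and Ifi44) and in a fit of only the groups compared (the same 2), and 1 with a replicate block (Oas2). The share of all genes called was not counted for these alternatives. The median over the members was -0.48 against 0 over all genes, and 38 of 43 estimates were below 0. The deletion and antibody comparisons share the deficient libraries, so their values are not independent of each other.

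The other genes of the pathway were followed from lists. No gene of 18 type I interferon ligands passed the filter on low counts. Ifnb1, interferon beta, was at 3.37 CPM in floxed CD4 replicate 1, 1.24 CPM in treated CD4 replicate 3 and at most 0.283 CPM in every other library. The listed interferon alpha genes had no count in the 18 libraries, which allows up to 1.24 CPM in the shallowest of them.

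Of 13 receptor chains, kinases and transcription factors 9 were lower and 2 higher in floxed CD8 than CD4 cells (20.2% and 18.9% of all genes). In deficient tumors 3 were lower (9.39% of all genes), and in treated tumors 7 lower and 1 higher (11% and 9.36%). Irf7, the factor that amplifies the response, had 49.6, 56.3 and 54.8 CPM in floxed, 102, 143 and 133 in deficient and 101, 105 and 106 in treated CD8 libraries, and 344, 324 and 519.8, then 122, 218 and 188, then 257, 203 and 217 in CD4 cells. It was lower in floxed CD8 cells by -2.88 ± 0.21 (adjusted p = 4.46e-09), rose with the deletion in CD8 cells (1.23 ± 0.20 (adjusted p = 0.00026)) and fell in CD4 cells (-1.17 ± 0.19 (adjusted p = 0.000769)), and the difference between these changes was 2.40 ± 0.28 (adjusted p = 2.82e-05). Irf9, the DNA-binding part of the interferon complex, was lower in CD8 cells of floxed (-1.19 ± 0.13 (adjusted p = 2.69e-07)) and deficient tumors (-0.61 ± 0.12 (adjusted p = 0.00177)). Ifnar2, a chain of the receptor, had 34.8, 42.9 and 55.5, then 83.6, 68.6 and 90.3, then 53.1, 36.01 and 63.04 CPM in CD8 and 104, 88.8 and 109, then 70.5, 81.1 and 86.5, then 74.4, 56.9 and 74.3 in CD4 cells, with a difference of the deletion effect of 1.21 ± 0.27 (adjusted p = 0.00446). Irf8, a factor of myeloid cells that T cells also express, went the other way in CD8 cells: it fell with the deletion (-1.08 ± 0.16 (adjusted p = 7.34e-05)) and rose with the antibodies (1.07 ± 0.16 (adjusted p = 0.000117)).

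Among 10 feedback inhibitors 4 were lower and 3 higher in floxed CD8 cells (20.2% and 18.9% of all genes). Socs3, which blocks Jak kinases, was lower in floxed CD8 than CD4 cells (-2.04 ± 0.22 (adjusted p = 9.11e-07)), rose with the deletion in CD8 cells (2.16 ± 0.22 (adjusted p = 5.44e-06)) and fell there with the antibodies (-1.98 ± 0.22 (adjusted p = 1.56e-05)). Socs1 rose with the deletion in CD8 cells (1.01 ± 0.15 (adjusted p = 0.000111)). Of 11 tested genes that act upstream of interferon 7 were lower in floxed CD8 cells (20.2% of all genes). Among them were Samhd1, which degrades nucleotides (-1.89 ± 0.18 (adjusted p = 1.18e-07)), and Ikbke, a kinase that activates interferon regulatory factors (-1.15 ± 0.18 (adjusted p = 3.28e-05)).

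Further interferon-stimulated genes outside the 43 were counted in the same way. Of 46 tested 33 were lower and 1 higher in floxed CD8 cells (20.2% and 18.9% of all genes). In deficient tumors 15 were lower and 1 higher (9.39% and 6.21%), and in treated tumors 23 lower and 2 higher (11% and 9.36%). With the deletion 14 rose and 1 fell in CD8 cells (9.65% and 9.61% of all genes), and 1 rose and 13 fell in CD4 cells (4.61% and 7.06%). Gbp2, a guanylate-binding GTPase, was at -2.19 ± 0.17 (adjusted p = 6.28e-09) in floxed tumors and rose with the deletion in CD8 cells (1.36 ± 0.17 (adjusted p = 1.73e-05)). Ms4a4b, a T cell membrane protein, was higher in CD8 cells of deficient (1.28 ± 0.14 (adjusted p = 1.47e-06)) and treated tumors (1.25 ± 0.14 (adjusted p = 1.98e-06)). Ly6a (Sca-1) was lower in deficient CD8 cells (-2.23 ± 0.22 (adjusted p = 1.12e-06)) and rose with the antibodies (1.28 ± 0.21 (adjusted p = 0.000533)), as did Plac8 (1.5 ± 0.29 (adjusted p = 0.00334)).

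Among 22 tested genes that prefer interferon gamma, CD8 cells were lower than CD4 cells for 17 in floxed tumors, 11 in deficient tumors and 17 in treated tumors. The shares of all genes lower were 20.2%, 9.39% and 11%. With the deletion 13 rose and 1 fell in CD8 cells (9.65% and 9.61% of all genes), while 1 rose and 3 fell in CD4 cells (4.61% and 7.06%). Tgtp1, a T cell GTPase, rose with the deletion in both cell types, by 2.42 ± 0.25 (adjusted p = 2.53e-06) on the CD8 side and 0.86 ± 0.24 (adjusted p = 0.0207) on the CD4 side. Ciita, the activator of class II genes that antigen-presenting cells express, was lower in floxed CD8 cells (-4.23 ± 0.31 (adjusted p = 6.65e-09)).

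Members with and without the response element in the promoter window were described side by side. In floxed tumors the 16 members with the GAAA repeat had a median log2 fold change of -2.14, CD8 minus CD4, and all 16 were called, against -1.39 and 13 calls among the 16 without it. In deficient tumors the medians were -0.54 and -0.42, and in treated tumors -1.14 and -0.88. The deletion gave medians of 0.58 and 0.54 in CD8 cells and -0.70 and -0.44 in CD4 cells. Floxed differences of the 16 ran from -4.69 in Rsad2 to -0.50 in Ifi203. Rsad2, Ifitm3 (-3.95), Slfn5, Oas1a, Ifit3, Isg15 and Ifit1 were at or below -2.54, Ifit3b (-2.39), Ifih1 (-1.89), Bst2 (-1.74), Oas3 (-1.60), Trim30a (-1.38) and Slfn8 (-1.33) lay between, and Eif2ak2 (-0.63), Ddx58 (-0.60) and Ifi203 were nearest to 0. No test was made between the motif groups.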

How the data were processed

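The files are the authors' gene-level read counts, 1 table per library. Per the file headers, the authors made these counts with featureCounts 1.5.1, reverse stranded (option 2), on Ensembl release 87 annotation, with no option that keeps reads matching several places or genes. Per the submitters' processing notes the build was GRCm38, and STAR and DESeq2 were also used. Symbols came from GENCODE M21 for 49326 of 49671 models. Coordinates are those of the files.

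All 18 libraries (6 groups of 3) were fitted together by edgeR's robust quasi-likelihood model (version 4.0.16, R 4.3.3) after filterByExpr and TMM scaling. There were 12 residual degrees of freedom, and the common coefficient of biological variation came to 0.229. P-values of edgeR's quasi-likelihood test were adjusted over 14080 genes by the Benjamini-Hochberg method for each of 9 contrasts, and a gene was called under 0.05. The standard errors of the fit, in text and figures, were derived from that test. Each is the absolute log2 fold change divided by the square root of the F statistic. Errors beside CPM are not given where all 3 libraries are printed. Libraries are pools, so p-values measure the spread between pools, and counting limits cover counting error only. Replicates of a group differed by more than counting noise (chi-square per degree of freedom of at least 7.78). The scripts were tested on simulated counts. Motifs and 50-base stretches were counted by exact matching in the RefSeq promoters and the reference transcripts.

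The members, lists, tests and named genes were chosen with earlier results of these data known. Named with every library are, per role, the member with the highest CPM per kb or the smallest adjusted p in a comparison. Isg20 was added after its values were seen. From each pathway list up to 2 genes with the smallest adjusted p are named. Mb21d1, Mnda and Pyhin1 had no matching symbol and were not used. Marker lists covered 10 cell types. Alternatives were RLE scaling, no filter, a filter of 2 CPM in 3 libraries, DESeq2 1.42.0, limma voom (limma 3.58.1), only the groups compared, a replicate block and leaving out each library. Same-numbered libraries met the check for pairing between deficient CD8 and CD4 cells alone (3 of 3 correlations over 0.1).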

Additional observations from a re-analysis of the deposited data

Results flagged for a closer look

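The effect of the deletion differed between CD8 and CD4 cells for 25 members by edgeR's quasi-likelihood test of the interaction, and in each the change was more positive in CD8 cells. As log2 values, CD8 minus CD4, these were Ifit1 at 1.69, Ifit2 at 2.06, Ifit3 at 2.83 and Ifit3b at 1.88 among the Ifit genes. In the Oas family they were Oas1a at 1.92, Oas2 at 2.18, Oas3 at 1.34, Oasl1 at 3.24 and Oasl2 at 3.13. The sensors Ifih1 and Zbp1 were at 1.05 and 1.22, and Usp18 was at 1.77. Effectors included Mx2 at 1.80, Rsad2 at 3.91, Cmpk2 at 2.06, Bst2 at 1.07, Ifitm3 at 2.87, Samd9l at 0.91 and Rtp4 at 2.52. Slfn1 was at 1.60, Slfn5 at 2.32 and Slfn8 at 1.09, and Ifi204, Phf11d and Trim30a were at 4.11, 3.47 and 0.80.

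The effect of the antibodies differed between the cell types for Ifitm1. The edgeR interaction test gave 2.64 ± 0.44 (adjusted p = 0.00461), larger in CD8 cells.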

How the results depend on the processing

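Of 2163 alternative values of the 146 calls of single members, 1973 stayed past the threshold in the same direction, 190 fell short of it and none changed direction. The counts of called members stayed within 1.5 times of the reported ones except as follows, and the cause was not tested. The share of all genes called was counted for the reported fit alone, so the counts of the alternatives have no such share beside them. Without the filter on low counts, 17 members were called between CD8 and CD4 cells of deficient tumors, 12 with the antibodies in CD8 cells (4 higher, 8 lower), 11 with the antibodies in CD4 cells (all higher) and 12 for the difference of the antibody effect (1 higher, 11 lower). DESeq2 called 8 members with the antibodies in CD8 cells (2 higher, 6 lower) and 3 for that difference (1 higher, 2 lower), and a fit of only the groups compared called 12 (4 and 8) and 3 (1 and 2). With a replicate block these counts were 7 (2 and 5) and 2 (1 and 1). The replicate block within each condition, chosen after seeing the data, called 19 members between deficient CD8 and CD4 cells and 9 for the difference of the antibody effect (1 higher, 8 lower), and moved no other count by over 1.5 times. Replicate numbers are not said to mark shared tumors, and outside the deficient tumors the check for pairing was not met. In treated tumors same-numbered CD8 and CD4 libraries had correlations of 0.12, 0.1 and 0.3, with 2 of 3 over 0.1. Each of these was higher than with any other number.

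Leaving out 1 library at a time gave 38 to 40 called members between CD8 and CD4 cells of floxed, 4 to 16 of deficient and 26 to 32 of treated deficient tumors. The deletion gave 11 (10 higher, 1 lower) to 20 (18 higher, 2 lower) in CD8 and 6 to 20 (all lower) in CD4 cells, and 18 to 28 for its difference. The antibodies gave 1 to 5 in CD8 and 0 to 1 in CD4 cells, and 1 in each case for their difference. Each group holds 3 pools, which limits the precision.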
